A study of Mus musculus with 18 samples.

Results

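The genes described here are 10 core transcription factors of the heart: Gata4, Gata6, Nkx2-5, Tbx5, Tbx20, Hand2, Myocd, Srf, Isl1 and Hand1. They were chosen by name and not by their values, and they are 10 of the 21627 protein-coding genes that the autosomes and X hold in the RefSeq annotation of the mouse genome (GRCm38.p6). For each gene, every region of the authors' deposited lists that overlapped the gene span or the 20 kb on either side of it was taken. That stretch is called the window of the gene. The first 8 genes are known to be active in the adult heart, while Isl1 is a factor of heart progenitors and Hand1 of the embryonic heart. The windows held 528 listed regions.

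Chromatin immunoprecipitation and sequencing (ChIP-seq) was done on cardiomyocyte-enriched populations of C57BL/6J mice with antibodies to G9a, H3K9me2, H3K27me3 and Mef2c. The sample labels name H3K27me3, which is used here, while the design text has H3K27me2 in its place. All animals carried alphaMHC-MerCreMer +/-, a transgene in which the promoter of the alpha myosin heavy chain gene, active in cardiomyocytes, drives a Cre recombinase that tamoxifen switches on. The KO animals also carried G9a flox/flox, so that Cre could delete part of the gene of G9a in cardiomyocytes, and the Cre animals carried the transgene alone. For each target there were 2 Cre and 2 KO libraries, which the series text calls biological replicates. The labels are silent on age, on the tamoxifen treatment and on any pooling of animals. Cells other than cardiomyocytes in the enriched population keep G9a in both genotypes, and fewer cells with a mark cannot be told apart from less of the mark per cell.

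These factors bind DNA together and switch on the genes of the contractile apparatus. GATA factors, the homeobox protein Nkx2-5 and T-box proteins share many enhancers, SRF binds the CArG box of muscle genes with myocardin as its coactivator, and MEF2 proteins act beside all of them. G9a is a methyltransferase that places H3K9me2, a mark of silent chromatin, and H3K27me3 is placed by Polycomb repressive complex 2, which typically covers the genes of developmental regulators in cells that do not use them. Isl1 marks cells of the second heart field and is largely switched off as they become cardiomyocytes.

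Each listed region has 2 Cre and 2 KO signal values, on a scale that no label or header names, and a -log10 p of the authors' own comparison. The lists hold regions that differed, so a value here is listed signal and not all signal of a gene, and p-values computed from it are too small. The 4 values of all regions in a window were summed, the sums of all genes with a listed region were compared by limma on the log2 scale, and a gene was called where the adjusted p was under 0.05. Groups are said not to overlap where both KO values lie above, or both lie below, the 2 Cre values. At the targeted gene itself, summed G9a signal in the window of Ehmt2, the gene of G9a (chromosome 17, 34898463 to 34914073), was 4134 and 3641 (Cre) against 2890 and 2444 (KO). Both KO sums were the lower ones, with a log2 difference of -0.55 (SE 0.24) and a limma adjusted p of 0.358. Sums of G9a were lower without overlap at 42.7% of all genes, and no label says which exons are floxed, so this does not check the genotypes. H3K9me2 there (1270 and 993, 1356 and 1242) and Mef2c (3002 and 2386, 2659 and 1572) overlapped. H3K27me3 there was 2564 and 3403 (Cre) against 2164 and 2209 (KO), lower without overlap, as at 57.0% of all genes. Its log2 difference was -0.43 (SE 0.17), with a limma adjusted p of 0.0663. The files hold no expression. Of 8 cardiomyocyte markers 7 had listed H3K27me3 signal in Cre, with a median of 45.2 per kb of window. They ranged widely, from 1.26 at Actn2 to 90.9 at Myh6. The median was 130 per kb for 6 fibroblast and 48.1 for 5 endothelial markers, and 33.8 for all genes. It was 57.4 for 5 smooth muscle markers and 54.4 for the 4 leukocyte markers with a listed region. Listed H3K9me2 had a median of 6.87 per kb at the 8 cardiomyocyte markers, from 1.89 at Tnni3 to 54.6 at Myh6. The median was 28.3 for the fibroblast, 25.6 for the endothelial and 24.4 for 5 smooth muscle markers. It was 33.6 for 5 leukocyte markers and 21.2 for all genes. Myh6 lay above every marker of the other cell types, of which Adgre1 was highest (54.1). Myh6 is the alpha myosin heavy chain gene, whose promoter the transgene of all animals also holds. Signal from the transgene cannot be told apart from that of Myh6 itself. These levels were not tested.

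H3K27me3 in Cre set the 10 genes apart from each other more than any other target. Summed listed H3K27me3 per kb of window ranged 85.3-fold, from Myocd to Isl1. The range was 8.19-fold with G9a, 5.69-fold with H3K9me2 and 4.46-fold with Mef2c. Isl1 had 349 and 323 per kb in its 2 Cre libraries, Hand1 171 and 144, and Tbx5 141 and 114. These were the 3 highest genes, at the 98.6th, 89.6th and 85.1st percentile of all genes by their Cre mean. Per kb of window the progenitor factor and the embryonic factor thus stood above all 8 factors of the adult heart. This order depends on the length of the window, which was 51.4 kb at Isl1, 43.4 kb at Hand1 and 129 kb at Tbx5. The undivided Cre sums of Tbx5 (18200 and 14719) overlapped those of Isl1 (17939 and 16587) and lay above those of Hand1 (7411 and 6263).

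Nkx2-5 had 77.9 and 26.4 per kb and Hand2 53.5 and 32.4, both above the all-gene median by their means. Gata4 had 12.3 and 11.1 per kb, Srf 4.997 and 8.11, Gata6 8.63 and 3.38, Tbx20 5.39 and 4.28, and Myocd 4.11 and 3.76, all under the all-gene median. The libraries of neighbours in this order overlapped for Nkx2-5 and Hand2, for Srf and Gata6, and for Gata6 and Tbx20, and lay apart for the other 6 neighbouring pairs. The sums differ in how many other genes a window holds: those of Gata4 (Fdft1, Neil2), Srf (Cul9, Ptk7), Myocd (Arhgap44) and Hand1 (Sap30l) reach into other protein-coding genes.

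**Figure D1:**
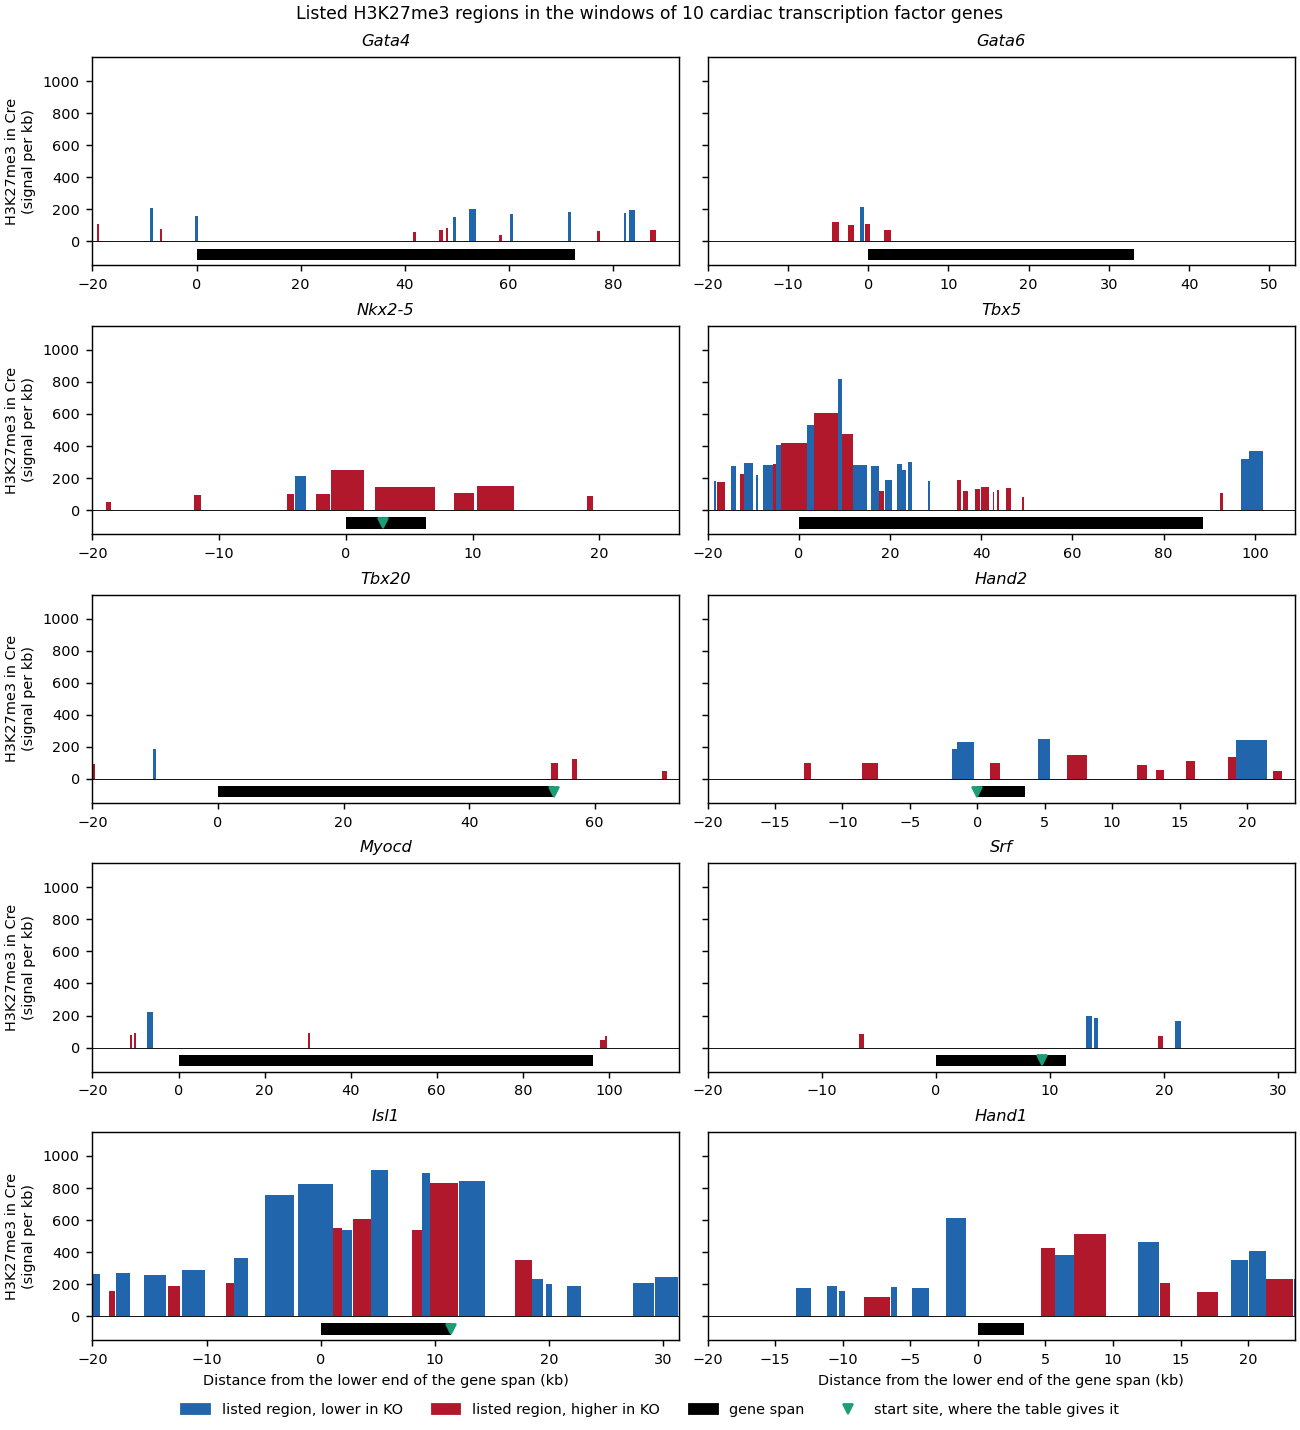
Listed H3K27me3 regions in the window of each gene. The x axis is the distance in kb from the lower end of the gene span, the height is the mean Cre signal per kb of the region, and colour gives the authors' direction in KO. Regions above 348 per kb are seen only at Tbx5, Isl1 and Hand1.

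The high levels came largely from dense regions. A region was called dense here if its Cre signal per kb lay in the top 5% of the H3K27me3 list (348 per kb or more). Isl1 had 12 dense regions among 24, from -7.62 kb to 18.5 kb from the lower end of its span, Tbx5 had 7 among 33 and Hand1 7 among 17, and the other 7 genes had none. They held 79.9% of the Cre sum of Isl1, 70.1% of that of Hand1 and 59.3% of that of Tbx5. The densest region of Isl1 lay inside the gene (116302701 to 116304150), at 913 per kb, with values of 1527 and 1122 (Cre) against 1342 and 734 (KO) per the authors' deposited list. The densest of Tbx5 (119805101 to 119806050) reached 815 per kb, with 997 and 552 against 599 and 603, and that of Hand1 (57826351 to 57827800) 614 per kb, with 1016 and 765 against 751 and 650. The KO values overlapped the Cre values at the first 2 of these and not at that of Hand1.

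RefSeq promoter entries matched 5 of the 10 genes: Nkx2-5, Tbx20, Hand2, Srf and Isl1. The 250 bases before the start site are shown for the 3 whose start site lies inside a listed H3K27me3 region and for Srf, whose promoter no listed region touched. Capitals mark matches, on either strand, to GATA motifs (AGATAA or AGATAG, and TGATAA or TGATAG), to the NKX core AAGTG, to the T-box core AGGTGT and to the MEF2 and CArG motifs, and all runs are read 5′ to 3′ on the minus strand of mm10.
Nkx2-5, chr17:26841566-26841815: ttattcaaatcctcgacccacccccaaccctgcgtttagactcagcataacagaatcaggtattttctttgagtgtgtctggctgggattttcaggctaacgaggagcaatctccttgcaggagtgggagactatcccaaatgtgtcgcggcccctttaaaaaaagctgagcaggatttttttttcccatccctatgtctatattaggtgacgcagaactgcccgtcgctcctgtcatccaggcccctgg
Tbx20, chr9:24774304-24774553: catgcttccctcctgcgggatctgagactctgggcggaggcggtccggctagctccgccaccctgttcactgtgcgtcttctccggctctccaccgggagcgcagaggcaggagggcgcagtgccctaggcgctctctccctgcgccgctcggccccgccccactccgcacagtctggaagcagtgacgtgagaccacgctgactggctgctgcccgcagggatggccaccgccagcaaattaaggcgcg
Isl1, chr13:116309689-116309938: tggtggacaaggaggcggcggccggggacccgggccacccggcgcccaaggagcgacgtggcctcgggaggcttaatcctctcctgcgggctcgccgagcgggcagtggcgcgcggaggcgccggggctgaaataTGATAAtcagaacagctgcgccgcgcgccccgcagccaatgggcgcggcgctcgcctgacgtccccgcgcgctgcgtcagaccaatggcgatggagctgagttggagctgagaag
Srf, chr17:46556163-46556412: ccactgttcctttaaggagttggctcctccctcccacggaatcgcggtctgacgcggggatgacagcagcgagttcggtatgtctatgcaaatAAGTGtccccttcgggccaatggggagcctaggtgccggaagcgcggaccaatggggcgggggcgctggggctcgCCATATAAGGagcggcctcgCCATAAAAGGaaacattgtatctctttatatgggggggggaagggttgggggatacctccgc

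The Isl1 promoter held 33 CpG dinucleotides, at the 95.2nd percentile of 17273 mouse promoters, and 1 GATA match. That of Tbx20 held 22 and no match, and that of Nkx2-5 held 8, under the all-promoter median of 10, and no match. The Srf promoter held 17 CpG, 1 NKX match and 2 CArG matches, 82 and 62 bases before the start; CArG boxes are the sites that SRF itself binds. A CArG match was found in 1.41% of all promoters, a GATA match in 24.3%, an NKX match in 39.9%, a T-box match in 11.3% and a MEF2 match in 2.63%. A match is a run of letters and not a measured site.

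The start sites lay in H3K27me3 regions of different size. At Isl1 the region over the start site (116307851 to 116310300) had 2060 and 2022 (Cre) against 1900 and 2632 (KO) per the authors' deposited list. At Nkx2-5 the region over it was 4.7 kb wide (26841001 to 26845700), with 1140 and 211 (Cre) against 1806 and 976 (KO). At Tbx20 it was 1.15 kb wide (24773801 to 24774950), with 132 and 89 against 192 and 246. The KO values lay above both Cre values only at Tbx20 among these 3 regions, and overlapped at the other two. Hand2 had a region ending before its start (57319501 to 57320750) with 356 and 219 (Cre) against 106 and 156 (KO), and one inside the gene (57321901 to 57322700) with 117 and 40 against 165 and 277, so listed H3K27me3 went opposite ways on either side of that start site.

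The other 3 targets varied less. Isl1 had the highest listed H3K9me2 (32.7 and 31.1 per kb in Cre) and Mef2c (39.1 and 25.8) of the 10 genes, and Hand1 had the highest G9a (49.3 and 45.6). Tbx20 was lowest for H3K9me2 (6.49 and 4.72) and Mef2c (8.19 and 6.39), and Myocd for G9a (4.77 and 6.82). By the Cre mean 7 of the 10 genes lay under the all-gene median for G9a, 8 for H3K9me2 and 6 for Mef2c. Neighbours in the order of levels overlapped in 5 of 9 pairs for G9a, 6 of 9 for H3K9me2 and 5 of 9 for Mef2c, so much of the order was within the spread of 2 libraries.

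**Figure D2:**
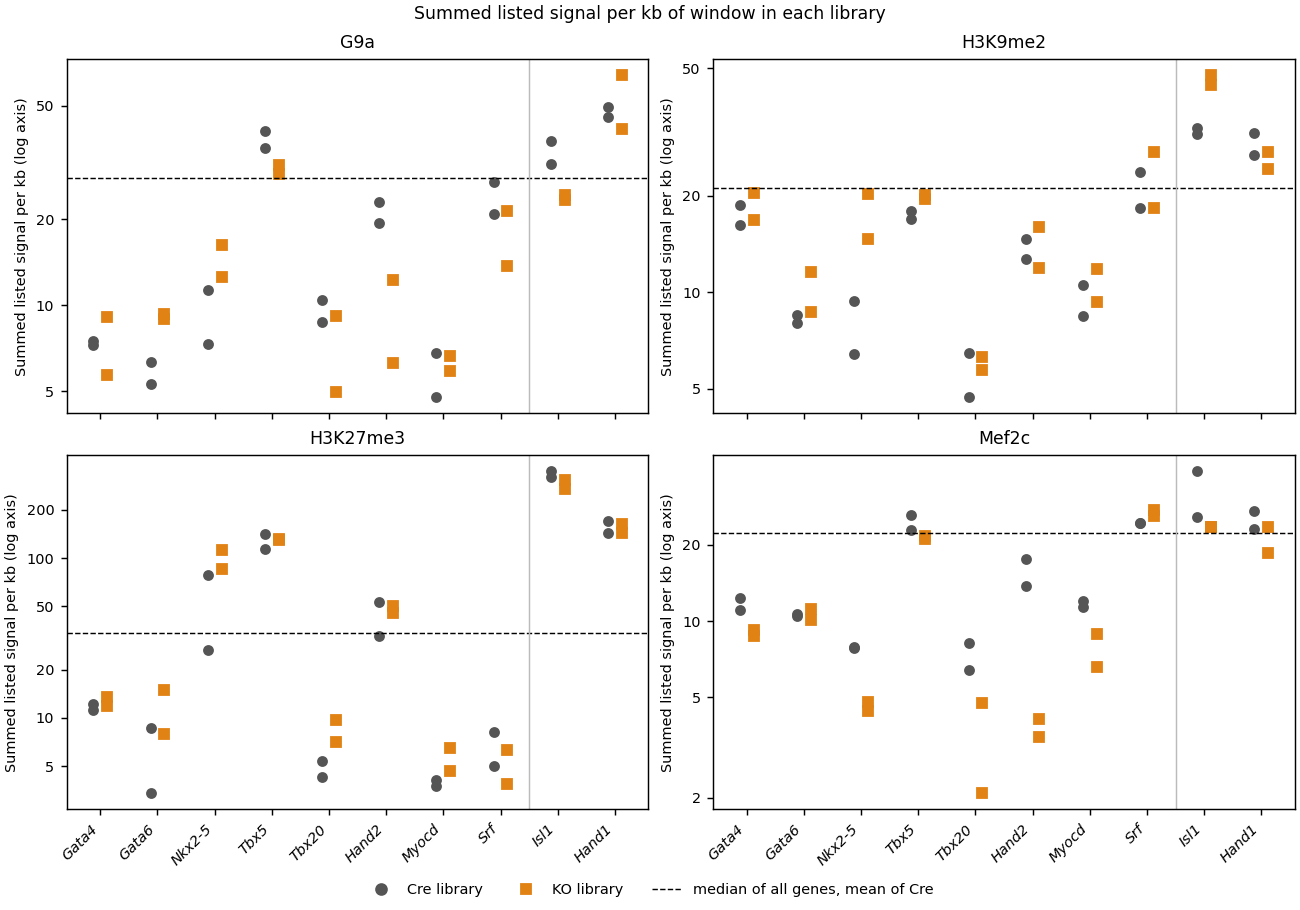
Summed listed signal per kb of window (log axis) of the 10 genes for each target. Circles are the 2 Cre and squares the 2 KO libraries, the dashed line is the all-gene median of the Cre means, and the grey line divides the 8 factors of the adult heart from Isl1 and Hand1. For H3K27me3 Isl1, Hand1 and Tbx5 lie above 100 per kb in every library.

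G9a was compared between the genotypes to see whether the enzyme was lost from these genes when its gene was deleted. No gene of the 20927 tested was called for G9a by limma (0%), while 2931 had an unadjusted p under 0.05 and 2 were called without a trend. The sums of 3 members did not overlap and were lower in KO (Tbx5, Hand2, Isl1), where 42.7% of all genes were, and those of 2 were higher (Gata6, Nkx2-5), where 7.10% of all genes were. Of the 129 listed G9a regions in the windows 76 (58.9%) were lower in KO, near the 61.5% of the whole list.

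H3K9me2, the mark G9a places, was higher in KO over most listed regions of the genome. Nkx2-5 was the only member called, and it rose; 9.41% of the 20989 genes tested were called higher and 0.343% lower. This split turned with the scaling: 1976 genes were called higher and 72 lower as deposited, and 227 higher and 675 lower after the libraries were brought to one median. The sums of 4 members did not overlap and were higher (Gata6, Nkx2-5, Tbx5, Isl1), against 44.6% of all genes, and none was lower in this way, against 9.98%. Of 143 listed regions 57 (39.9%) were lower in KO, against 39.7% of the list.

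For H3K27me3, 63 of 134 listed regions (47.0%) were lower in KO, against 63.3% of the list. The difference between these shares was not tested, and 23 pairs of the members' regions touch, which in this list always go opposite ways. Nkx2-5 rose and was the only member called, where 1.71% of the 19973 genes tested were called higher and 24.0% lower. As deposited, 342 genes were called higher and 4800 lower, against 799 higher and 261 lower after that scaling. The sums of Nkx2-5, Tbx20 and Myocd did not overlap and were higher, which 10.5% of all genes were, and that of Isl1 was lower, which 57.0% were. The median log2 difference was 0.15 for the 10 members and -0.27 for all genes.

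Mef2c fell at Hand2 and Tbx20, the 2 members called; 15.4% of the 20791 genes tested were called lower and 0.529% higher. As deposited, 3195 genes were called lower and 110 higher, against 211 lower and 802 higher after that scaling. The sums of 7 members did not overlap and were lower (all but Gata6, Srf and Hand1), against 52.5% of all genes, and that of Srf was higher, against 8.64%. Of 122 regions 76 (62.3%) were lower, near the 61.7% of the list. The median log2 difference was -0.40 for the members and -0.27 for all genes. In all, 21 of the 40 sums did not overlap and 4 were called, counts to be read beside the all-gene shares given for each target. None of the 4 calls was kept when limma was fitted without a trend, where 7 genes or fewer were called for any target.

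Among single regions none of the members' 528 was called by limma for any target, where 6 of 504986 were called for H3K27me3 (0.00119%) and none for the others. At an unadjusted p under 0.05 there were 7 G9a regions (5.43%, against 6.50% of the list), 11 H3K9me2 regions (7.69%, against 11.1%), 28 H3K27me3 regions (20.9%, against 15.3%) and 12 Mef2c regions (9.84%, against 11.3%).

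**Figure D3:**
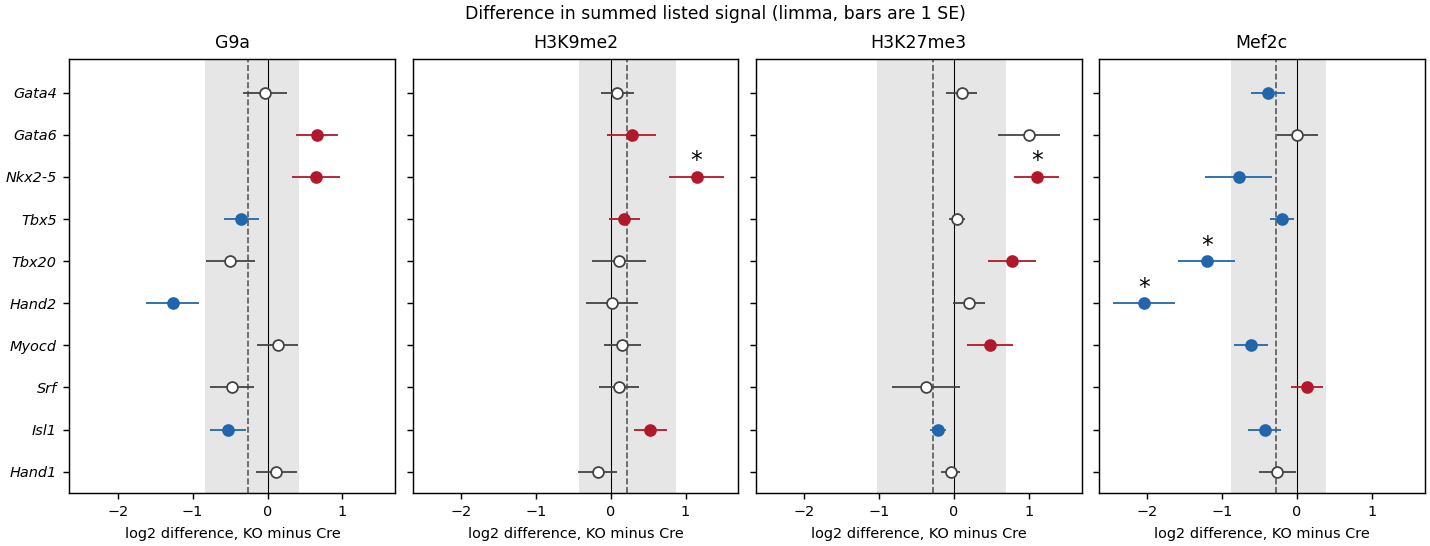
log2 difference (KO minus Cre) of summed listed signal for each gene and target, with bars of 1 SE from limma. Filled points have groups that do not overlap, asterisks mark an adjusted p under 0.05, the dashed line is the all-gene median and the grey band holds the middle 90% of all genes. The asterisks stand at Nkx2-5 for both histone marks and at Tbx20 and Hand2 for Mef2c.

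Nkx2-5 (gene ID 18091, chromosome 17, 26838664 to 26844988), the homeobox factor that is among the earliest to mark cardiac cells, had higher listed signal of both histone marks in KO. Its summed H3K27me3 was 3610 and 1225 (Cre) against 5177 and 3966 (KO), a log2 difference of 1.11 (SE 0.30) with a limma adjusted p of 0.0137. Both KO sums lay above both Cre sums, but the second Cre library was far under the first, and without it the difference was 0.33 and was not called. The limma adjusted p for H3K27me3 was 0.253 without a trend and 0.0504 with the gene span only. Summed H3K9me2 of Nkx2-5 was 297 and 436 (Cre) against 679 and 938 (KO), a log2 difference of 1.15 (SE 0.36) with a limma adjusted p of 0.0248. The H3K9me2 call was not kept without a trend (adjusted p 0.108), with the libraries scaled to the same sum (0.149) or with 5 kb either side (0.535). This call was lost when the libraries were scaled to the same median (0.85, adjusted p 0.156) and when the first Cre library (0.119), the first KO library (0.0961) or the second KO library (0.451) was left out.

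In the window of Nkx2-5, 9 of 10 H3K27me3 regions were higher in KO by the authors' direction. The values of 5 regions did not overlap and were higher, and those of 5 overlapped, the region over the start site among them. Of all the members' H3K27me3 regions 32.1% were higher without overlap. The densest region, across the lower end of the gene (26837501 to 26840100), had 849 and 461 (Cre) against 1084 and 1129 (KO) per the authors' deposited list, and the widest, over the start site, had the highest -log10 p of any of the members' regions in that list (53.6). H3K9me2 was higher at 7 of 8 regions, none of them inside the gene. The strongest lay at -14.9 kb from the lower end of the gene (26823751 to 26824550), with values of 18 and 0 (Cre) against 153 and 243 (KO). In the KO libraries this region was well above both Cre values, which were near 0.

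G9a and Mef2c at Nkx2-5 went different ways. Summed G9a was 339 and 526 (Cre) against 581 and 755 (KO), without overlap, with a log2 difference of 0.65 (SE 0.32) and a limma adjusted p of 0.381. Summed Mef2c was 367 and 364 against 222 and 204, also without overlap, at -0.78 (SE 0.44) and 0.215, but the Mef2c difference was 0.46 with the gene span and 5 kb only. The strongest G9a region (26837501 to 26838650) had 90 and 102 (Cre) against 221 and 207 (KO), and began at the same base as the densest H3K27me3 region. The strongest Mef2c region, 19.3 kb from the lower end of the gene (26858001 to 26859200), had 221 and 229 against 72 and 130.

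**Figure D4:**
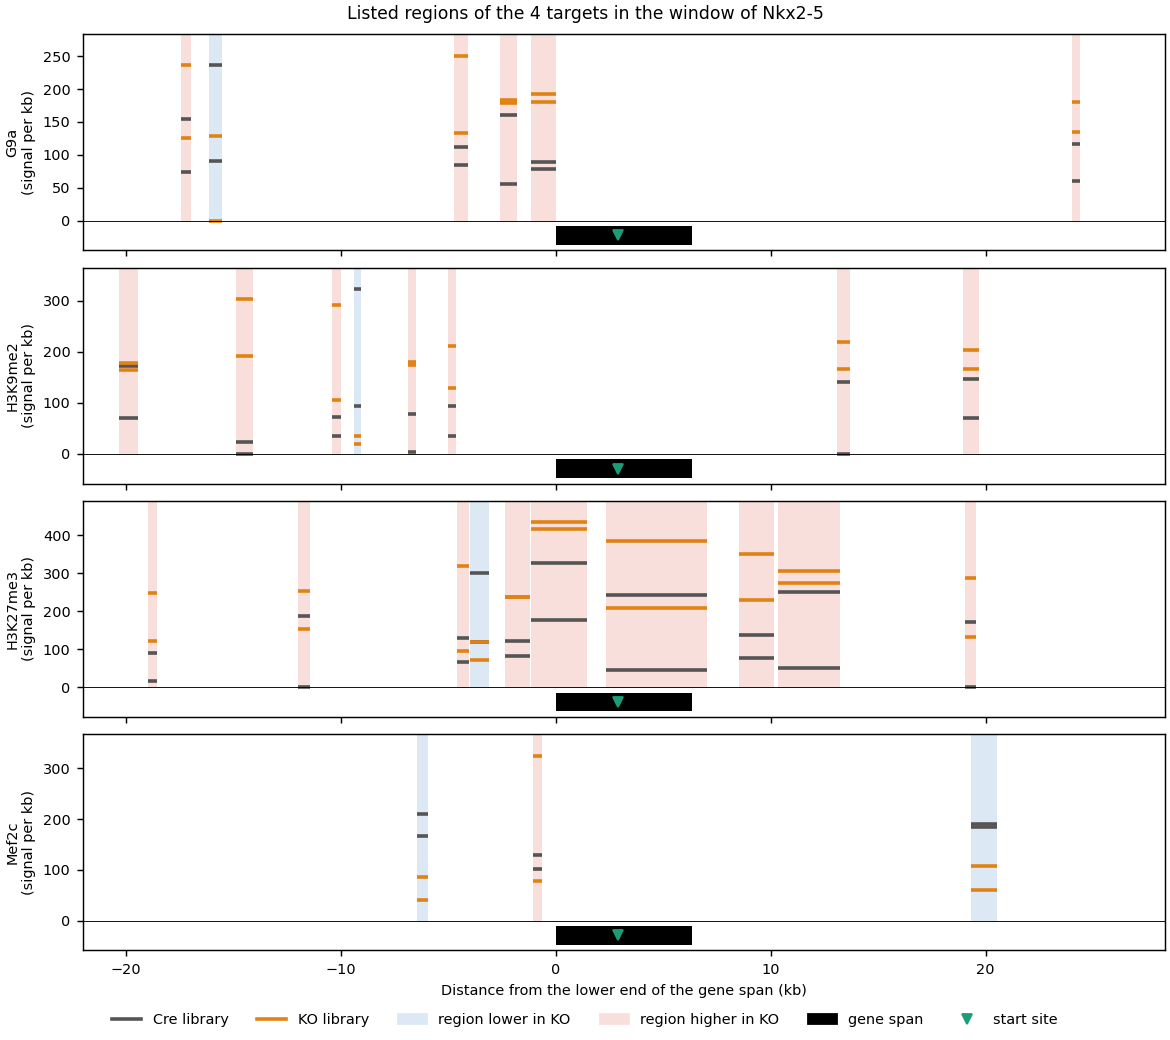
Listed regions of the 4 targets in the window of Nkx2-5. The x axis is the distance in kb from the lower end of the gene span, each line is the signal per kb of a library in a region, and the shade behind it gives the authors' direction. H3K27me3 is higher in KO over the gene, and 1 of the 2 Cre lines at the start site lies far under the other.

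Hand2 (gene ID 15111, chromosome 8, 57320983 to 57324517), a basic helix-loop-helix factor of the right ventricle and outflow tract, showed the largest loss of Mef2c among the members. Its summed Mef2c was 600 and 768 (Cre) against 151 and 179 (KO), a log2 difference of -2.04 (SE 0.41) with a limma adjusted p of 0.00237, at the 0.216th percentile of all genes. Both KO sums lay far under both Cre sums. Leaving out either Cre library ended the call (-2.22 with an adjusted p of 0.0529 without the first, -1.86 with 0.0964 without the second). The sum rests on 3 regions, none inside the gene or within 5 kb of it.

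All 3 Mef2c regions of Hand2 are given here after their values were seen. In the authors' deposited list the strongest (57340551 to 57341600), 19.6 kb past the start of the gene, had 278 and 210 (Cre) against 11 and 29 (KO) with a -log10 p of 46.7. Its neighbour (57339151 to 57340500) had 235 and 343 against 94 and 112, and the region on the other side of the gene (57300851 to 57301650) 87 and 215 against 46 and 38. The strongest G9a region (57339201 to 57340100) lay over that neighbour, with 220 and 173 against 58 and 13, and the strongest H3K27me3 region (57340201 to 57342450) covered the strongest Mef2c region, with 543 and 539 against 267 and 279. All 5 regions had both KO values under both Cre values, and 4 of them lay between 18.2 and 21.5 kb from the start of Hand2. An H3K27me3 region in the same stretch (57339551 to 57340200) went the other way, with 76 and 99 against 95 and 184, which overlap. The G9a and H3K27me3 regions were picked by their -log10 p, and the gene was called lower for Mef2c, so the choice itself favours values that lie apart. In the window of Hand2, 3 H3K27me3 regions were lower without overlap, 6 were higher and 4 overlapped. For G9a 5 were lower in this way and 4 overlapped. A joint loss of the 3 targets in this stretch was not tested.

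Summed G9a at Hand2 was 999 and 847 (Cre) against 533 and 273 (KO), a log2 difference of -1.27 (SE 0.35) with a limma adjusted p of 0.318; the difference was 0.39 over the gene span alone. The KO sums did not reach the Cre sums, the difference lay at the 0.884th percentile of all genes, and 8 of 9 regions were lower. Without the first KO library it was -1.75 and was called, in a fit that called 4481 of 20927 genes. H3K9me2 (637 and 555 in Cre, 695 and 519 in KO) and H3K27me3 (2327 and 1411, 2192 and 1979) overlapped between the genotypes.

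**Figure D5:**
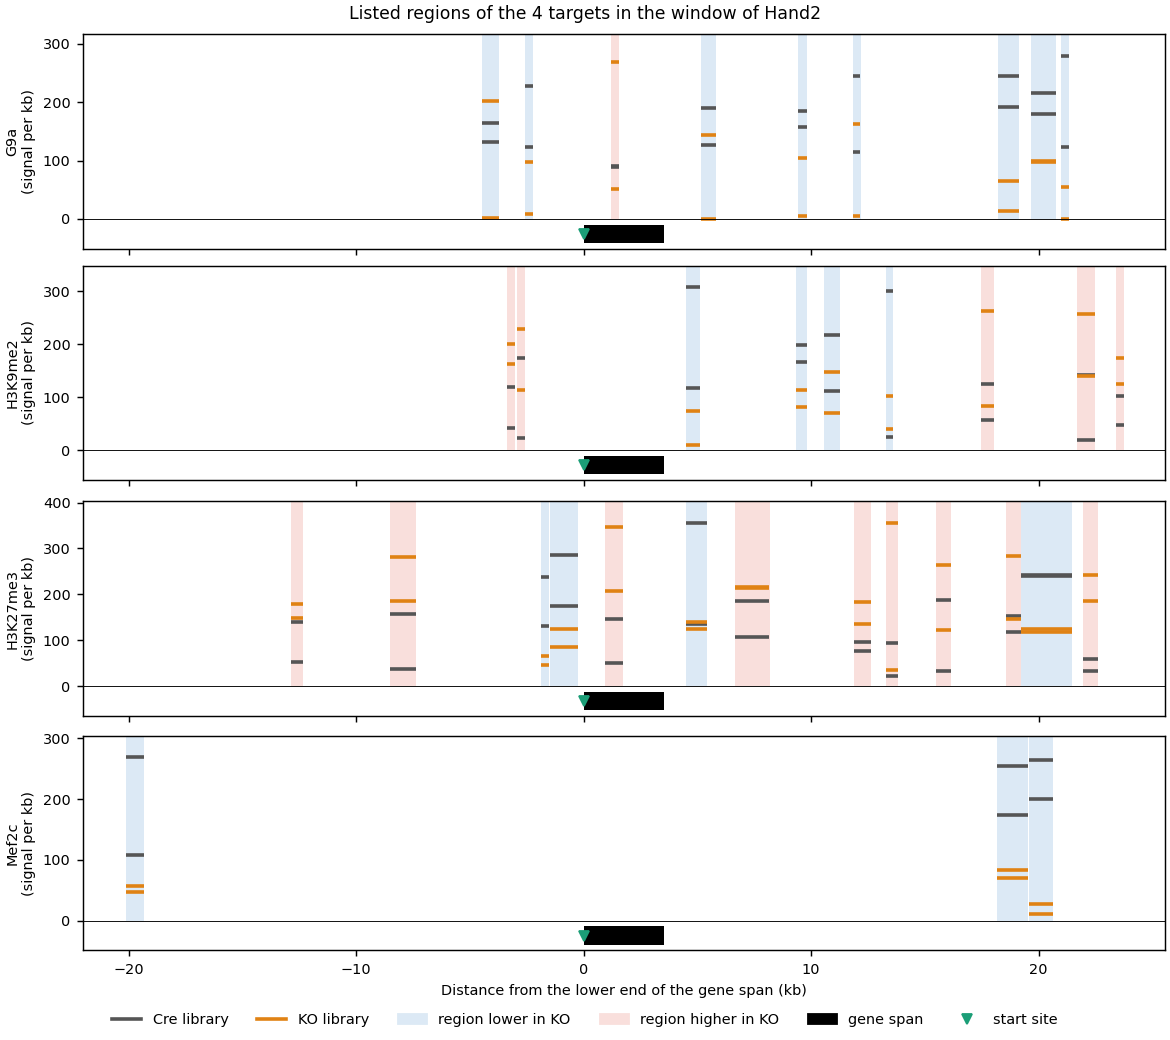
Listed regions of the 4 targets in the window of Hand2, drawn as signal per kb of each library against the distance in kb from the start of the gene. G9a, H3K27me3 and Mef2c have regions that were lower in KO between 18.2 and 21.5 kb, and H3K9me2 has none there.

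Tbx20 (gene ID 57246, chromosome 9, 24720812 to 24774303), a T-box repressor and activator that adult cardiomyocytes need, was the other gene at which Mef2c fell. Its summed Mef2c was 766 and 597 (Cre) against 195 and 443 (KO), a log2 difference of -1.20 (SE 0.38) with a limma adjusted p of 0.0293. Both KO sums were lower, and 6 of 7 regions were. The call was lost under median scaling (-0.87, adjusted p 0.138), with the gene span and 5 kb only (-0.88, 0.302), and without the first Cre (0.311), the second Cre (0.126) or the first KO library (0.240).

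The strongest Mef2c region of Tbx20 (24789301 to 24789650) lay 15.0 kb above the start site, with 81 and 77 (Cre) against 0 and 14 (KO) per the authors' deposited list. The strongest G9a region (24785251 to 24785850) lay on the same side, with 154 and 170 against 4 and 8 and a -log10 p of 37.8, the highest of the members' G9a regions. Summed G9a nonetheless overlapped (820 and 974, 466 and 858). Summed H3K27me3 was 504 and 400 (Cre) against 662 and 903 (KO), without overlap, a log2 difference of 0.78 (SE 0.32) with a limma adjusted p of 0.0752, and 4 of 5 regions were higher. It was called under median scaling (1.06, adjusted p 0.0333) and without the first KO library (1.01, 0.0326). It was 0.56 (0.260) without the second KO library and 0.62 (0.317) without the second Cre library, and the adjusted p was 0.141 without a trend.

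Tbx5 (gene ID 21388, chromosome 5, 119796514 to 119885220), the T-box factor of the left ventricle, atria and conduction system, held dense H3K27me3 regions although it is a factor of the adult heart. They lay between -5.01 kb and 101.7 kb from the lower end of its span, which is 88.7 kb long, and so reached past its upper end. Its summed H3K27me3 was 18200 and 14719 (Cre) against 16759 and 17040 (KO), which overlap. Its strongest region at the lower end of the span (119792551 to 119798300), 5.75 kb wide, had 2675 and 2146 against 3249 and 3215 per the authors' deposited list. Within it lay its strongest Mef2c region (119797251 to 119798050), with 270 and 138 (Cre) against 42 and 20 (KO).

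Over the whole window of Tbx5, summed G9a was 5268 and 4595 (Cre) against 3992 and 3722 (KO), the largest G9a sum of the members, with a log2 difference of -0.35 (SE 0.24) and a limma adjusted p of 0.467. Summed Mef2c (3375 and 2956, 2783 and 2707) did not overlap and was lower, and summed H3K9me2 (2317 and 2178, 2522 and 2586) did not overlap and was higher, but both of these differences changed sign when the libraries were scaled to the same median (0.13 for Mef2c and -0.11 for H3K9me2). The strongest H3K9me2 region (119807801 to 119809100), inside the gene, had 78 and 73 (Cre) against 360 and 210 (KO).

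Gata4 (gene ID 14463, chromosome 14, 63198914 to 63271712), a zinc finger activator of many cardiac genes and of hypertrophic growth, had sums that overlapped between the genotypes for 3 of the 4 targets. Summed G9a (819 and 843, 644 and 1024), H3K9me2 (2114 and 1828, 1903 and 2304) and H3K27me3 (1384 and 1257, 1515 and 1330) overlapped. Mef2c (1392 and 1247 in Cre, 983 and 1043 in KO) did not overlap and was lower, at -0.38 (SE 0.23) with a limma adjusted p of 0.244. The strongest H3K9me2 region of its window, also the densest, lay inside the gene (63250551 to 63251200). It had 156 and 178 (Cre) against 1 and 3 (KO) per the authors' deposited list. Regions are listed because they differed, and none of the members' H3K9me2 regions was called by limma.

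Gata6 (gene ID 14465, chromosome 18, 11052510 to 11085636), the related GATA factor, had summed G9a of 386 and 463 (Cre) against 684 and 654 (KO), without overlap and higher. The log2 difference was 0.66 (SE 0.28), at the 97.3rd percentile of all genes, with a limma adjusted p of 0.343. Its strongest G9a region, 9.17 kb past the upper end of the gene (11094801 to 11095400), had 7 and 31 against 143 and 167. Summed H3K27me3 was 631 and 247 (Cre) against 576 and 1094 (KO), which overlap, and Mef2c (778 and 764, 738 and 815) overlapped as well. H3K9me2 (587 and 621, 636 and 846) did not overlap, at 0.28 (SE 0.33), but was -0.013 under median scaling.

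Myocd (gene ID 214384, chromosome 11, 65173608 to 65269989), the coactivator myocardin, had 10 of 16 Mef2c regions lower in KO, near the share of the whole list (61.7%). Its summed Mef2c was 1639 and 1556 (Cre) against 895 and 1218 (KO), a log2 difference of -0.61 (SE 0.22) with a limma adjusted p of 0.0532. The KO sums lay under both Cre sums, and without the second KO library the gene was called (-0.83, adjusted p 0.0125). It was -0.39 (0.259) without the first KO library, -0.28 (0.477) under median scaling and -0.055 (0.916) with 5 kb either side. The strongest region (65161051 to 65161750), at -12.6 kb from the lower end of the gene, had 104 and 199 against 23 and 9, and the densest (65236651 to 65237550), inside it, 214 and 234 against 35 and 87. Summed H3K27me3 was 561 and 513 against 637 and 889, higher without overlap, at 0.49 (SE 0.31) with a limma adjusted p of 0.234.

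Srf (gene ID 20807, chromosome 17, 46546838 to 46558267), the factor that myocardin binds, was the only member whose Mef2c sums lay higher in KO without overlap, at 1258 and 1253 (Cre) against 1342 and 1411 (KO). The log2 difference was 0.13 (SE 0.21) with a limma adjusted p of 0.688. Within 1 kb of its start site 2 Mef2c regions went opposite ways, with 46 and 115 against 252 and 140 (46554751 to 46555550) and with 79 and 80 against 27 and 27 (46555651 to 46556100). An H3K9me2 region there (46554501 to 46555450), its strongest, had 45 and 62 (Cre) against 97 and 273 (KO). Its sums of G9a (1077 and 1391, 1103 and 706), H3K9me2 (944 and 1221, 946 and 1414) and H3K27me3 (257 and 417, 197 and 325) overlapped.

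Isl1 (gene ID 16392, chromosome 13, 116298270 to 116309688), the LIM homeobox factor of progenitors, kept most of its H3K27me3 in KO. The sums were 17939 and 16587 (Cre) against 15903 and 13977 (KO), lower without overlap, a log2 difference of -0.21 (SE 0.11) with a limma adjusted p of 0.138, which turned to 0.071 under median scaling of the libraries. The 12 dense regions overlapped between the genotypes, with 14346 and 13232 (Cre) against 13648 and 12068 (KO). The 12 other regions of the window did not overlap and were lower, with 3593 and 3355 against 2255 and 1909. The same division gave 1944 and 2144 (Cre) against 2615 and 2146 (KO) at the 10 other regions of Hand1, higher without overlap, and 7539 and 5872 against 6176 and 6474 at the 26 of Tbx5, which overlap. This division of the window was made after the values were seen and has no test.

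The strongest H3K27me3 region of Isl1 belongs to these less dense flanks (116286101 to 116288100), with 603 and 552 (Cre) against 303 and 224 (KO) per the authors' deposited list. Over the 26 dense regions of Isl1, Tbx5 and Hand1 the median size of the log2 difference between genotypes was 0.35, against 0.30 between the 2 Cre and 0.32 between the 2 KO libraries. A difference between means of 2 libraries varies less than one between single libraries, so these sizes are given side by side only. Over the other 108 regions of the members it was 0.96, and over the whole list it was 0.44 for dense and 0.89 for other regions. The list holds only regions that differed, and a weak region must differ by more on the log2 scale to be listed. Dense regions were also chosen by the Cre values that enter the difference. The smaller sizes at dense regions can follow from both, so whether dense regions change less in KO was not tested. Regions of a list that touch always had opposite directions, at 23 of 23 touching pairs of the members and 48359 of 48359 in the H3K27me3 list. The alternation of directions between touching regions is thus a property of the list.

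H3K9me2 sums were higher and G9a sums lower in KO at Isl1, the directions of the all-gene medians (0.22 and -0.27), and neither was called. Summed H3K9me2 was 1679 and 1598 (Cre) against 2284 and 2445 (KO), a log2 difference of 0.53 (SE 0.22) with a limma adjusted p of 0.0959. Summed G9a was 1939 and 1611 against 1256 and 1199, a difference of -0.53 (SE 0.24) with an adjusted p of 0.363. Neither target's groups overlapped. The differences lay at the 80.1st and 20.1st percentile of all genes, and under median scaling they were 0.24 and -0.20. The strongest H3K9me2 region (116296501 to 116297450), at the lower end of the gene, had 90 and 79 against 233 and 243, and the strongest G9a region (116280501 to 116280950) 112 and 91 against 9 and 2. Just before the start site, over the promoter shown above, 1 stretch was listed for both H3K9me2 and Mef2c (116309701 to 116310400): H3K9me2 was 60 and 85 against 100 and 139, and Mef2c 187 and 103 against 85 and 40. Summed Mef2c (2012 and 1328, 1213 and 1213) was lower without overlap, at -0.43 (SE 0.22) with an adjusted p of 0.165.

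Hand1 (gene ID 15110, chromosome 11, 57828713 to 57832147), the factor of the embryonic left ventricle, had no sum whose groups lay apart. Its sums were 2142 and 1981 (Cre) against 2780 and 1797 (KO) for G9a, 1365 and 1163 against 1191 and 1051 for H3K9me2, and 1181 and 1009 against 808 and 1024 for Mef2c. Summed H3K27me3 was 7411 and 6263 against 7046 and 6243. Its strongest G9a region (57827501 to 57827950), just below the gene, had 106 and 98 (Cre) against 10 and 0 (KO) per the authors' deposited list, partly over its densest H3K27me3 region. Isl1 and Hand1 shared a high H3K27me3 level in both genotypes, and of these 2 genes only Isl1 had sums that did not overlap. Tbx5, a factor of the adult heart, was high in both genotypes as well, at 141 and 114 per kb in Cre and 130 and 132 in KO.

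The lists were also compared by place. Regions of at least 3 lists lay over each other at 20.9 kb of the windows (2.68% of their length), in 48 unbroken stretches, and the median over all genes was 3.66%. Tbx5 had 7 kb of it in 16 stretches (5.44% of its window) and Isl1 6.7 kb in 13 stretches, which with its shorter window was 13.03%, at the 91.9th percentile of all genes. Tbx20 and Myocd had none, although Myocd has the longest window of the 10 (136 kb).

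Other genes of the same programme were counted from lists of names. Of 25 other heart transcription factors and cofactors, 3 fell and 2 rose for H3K27me3 among the 24 with a listed region, 1 fell and 1 rose for Mef2c, 1 rose for H3K9me2 and none was called for G9a. Over all genes 24.0% fell and 1.71% rose for H3K27me3, 15.4% fell and 0.529% rose for Mef2c, and 9.41% rose for H3K9me2. For H3K27me3 Foxc2, Hey1 and Smyd1 fell and Zfpm1 and Prdm16 rose. Zfpm1, the GATA cofactor FOG1, had 1074 and 1264 (Cre) against 1769 and 2380 (KO), a log2 difference of 0.82 (SE 0.21) with a limma adjusted p of 0.0112. Smyd1, a muscle methyltransferase, had 1325 and 1246 against 744 and 776, at -0.76 (SE 0.24) and 0.0286, but its difference was 1.00 with 5 kb either side and with the gene span only. That of Foxc2 was -0.29 and turned to 0.019 with the libraries scaled to one sum. For Mef2c Tbx1, a factor of the outflow tract, fell and Meis1, a homeobox factor that holds back division of cardiomyocytes, rose (1721 and 1700 against 2586 and 2578). For H3K9me2 Tbx18, a factor of the epicardium and sinus horns, rose (1410 and 900 against 1965 and 1993). The median H3K27me3 level of this list in Cre was 105 per kb, against 27.3 for the 10 members.

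Of 21 target genes of these factors, Myh6, Myh7 and Tagln rose for H3K9me2, and Ryr2 and Egr1 fell for H3K27me3. Myh6 and Myh7 fell for Mef2c, and none was called for G9a. Over all genes 9.41% rose for H3K9me2, 24.0% fell for H3K27me3 and 15.4% fell for Mef2c. The calls are to be read beside these shares. Myh6, which encodes alpha myosin heavy chain, had Mef2c sums of 3450 and 2110 (Cre) against 1929 and 1408 (KO), a log2 difference of -0.71 (SE 0.20) with a limma adjusted p of 0.0167. Its H3K9me2 sums were 4990 and 2231 against 6679 and 6627, at 1.00 (SE 0.17) and 4.03e-06. Myh7, the beta chain gene, is its neighbour, and their windows share regions. The transgene of all animals holds the promoter of Myh6, and signal from it cannot be told apart from that of Myh6 itself. Tagln, a smooth muscle gene that SRF and myocardin switch on, had H3K9me2 sums of 546 and 323 against 946 and 1104. Of the 16 calls in these 2 lists none was kept by limma without a trend, and 6 were kept under median scaling.

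Genes with the most similar profile were found by the distance between standardised log2 levels over the 16 ChIP libraries, among 19582 genes. For Isl1 they were Mnx1 (distance 1.04), H2-Aa (1.18), Pax9 (1.20), Prdm8 (1.21) and Gjb6 (1.28), with H3K27me3 in Cre between 250 per kb for Gjb6 and 436 per kb for Mnx1. For Gata4 they were Limch1 (0.87), Ubap1 (0.93), Fbxo8 (1.00), Shprh (1.09) and U2surp (1.098), with H3K27me3 between 9.74 and 12.7 per kb.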

How the data were processed

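ChIP-seq covered 18 libraries of cardiomyocyte-enriched cells, 16 of them for 4 targets and 2 of input DNA. Per the submitters' processing notes, BWA 0.7.10-r789 was the aligner, SAMtools 1.1 was used, and the build was mm10. The authors deposited 1 list of regions per target, whose text cell joins 4 signal values and the -log10 p of their own comparison. The caller, the normalization and the use of input are not given in the sources, so no count model was used. Depth is unknown, and intervals that need it are left out. That the Cre values come first follows from the list names and sample descriptions, and a plus sign went with lower values in KO.

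Values were summed over listed regions that overlap a gene span or 20 kb either side by at least 1 base, for 21627 protein-coding genes (chromosomes 1 to 19 and X). log2 (sum + 1) was fitted with limma 3.58.1 under R 4.3.3 using an empirical Bayes trend, with Benjamini-Hochberg adjustment over all genes with a listed region and a threshold of 0.05. Regions were fitted in the same manner over each whole list. The smallest exact two-sided p for 2 against 2 libraries is 0.333, so single values were compared by overlap. The fit was tested on simulated data. The alternatives were a pseudocount of 10, a filter on regions averaging under 20, a -log10 p minimum of 5, scaling of the libraries to one median or sum, a flank of 5 kb or none, region midpoints, no trend, and leaving out each library. All 10 members are named, with the region of the highest -log10 p, the densest in Cre and those within 1 kb of a start site. From the 2 other lists, called genes are named, except 1 that is counted and not reported here. The members and lists were chosen with earlier results of these data known. Sequences and start sites are from RefSeq (GRCm38.p6).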

Additional observations from a re-analysis of the deposited data

How the results depend on the processing

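No paired analysis was possible because the deposited values carry no replicate number. Scaling the libraries to the same median moved the all-gene median log2 difference from -0.27 to 0.057 for G9a, from 0.22 to -0.074 for H3K9me2, from -0.27 to 0.011 for H3K27me3 and from -0.27 to 0.057 for Mef2c. Over all genes, calls went from 2048 to 902 for H3K9me2, from 5142 to 1060 for H3K27me3 and from 3305 to 1013 for Mef2c. Leaving out 1 library gave 96 to 2691, 584 to 5094 and 129 to 4531, and 4 to 4481 for G9a against 0. With the gene span only there were 158, 1634 and 653, and at a -log10 p minimum of 5 there were 5265, 7671 and 6520 for the same 3 targets. The members called for H3K9me2 under median scaling numbered 0, for H3K27me3 3 and for Mef2c 1, and scaling to the same sum gave 0 for H3K9me2 and 1 for Mef2c. Without a trend in limma the count was 0 for H3K9me2, H3K27me3 and Mef2c. With the gene span only it was 0 for these 3 targets, and with 5 kb either side 0 for H3K9me2 and 0 for Mef2c. At a -log10 p minimum of 5 it was 2 for H3K9me2, 3 for H3K27me3 and 5 for Mef2c. Leaving out 1 library gave 0 to 2 members called for G9a, 0 to 1 for H3K9me2, 0 to 4 for H3K27me3 and 0 to 3 for Mef2c, on the assumption that the lone library varies like the others; G9a regions called ranged from 0 to 17, and both G9a maxima came without the first KO library.

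The share of the members' regions lower in KO was 68.3% for G9a and 73.3% for Mef2c at that -log10 p minimum, and 53.0% for Mef2c with 5 kb either side. Some differences of sums changed sign. With the gene span only, Hand2 G9a was 0.39 and Gata6 H3K9me2 was -0.20, the latter also -0.20 with 5 kb either side and -0.013 with the median scaling. With the median and the sum scaling in turn, Tbx5 H3K9me2 was -0.11 and -0.079, Isl1 H3K27me3 0.071 and 0.10, and Tbx5 Mef2c 0.13 and 0.12. With 5 kb either side, Nkx2-5 Mef2c was 0.46. The cause was not tested. The filter on regions averaging under 20 removed none. Only listed signal was seen and its depth is unknown.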
